A study of Arabidopsis thaliana with 12 samples.

Results

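The cold-regulated genes COR15A, COR15B, COR47 and LTI30 and the late embryogenesis abundant gene AT2G23120 were followed across 4 groups of Arabidopsis thaliana seedlings. They were chosen by name with earlier results of these data known, as the probe sets annotated to exactly 1 of these genes. Each gene had 1 such probe set. They make up 5 of the 13356 genes, and 5 of the 22746 probe sets, that were compared. All seedlings were 9 days old and of the Col-0 background, and each of the 4 groups was measured on 3 one-colour Affymetrix arrays labelled as biological replicates. Wild type (Col) and 35S:LOB-GR seedlings were flooded with MS medium without dexamethasone (mock) or with 5 µM of it (DEX) and shaken for 4 h. In 35S:LOB-GR the viral 35S promoter drives a fusion of the LATERAL ORGAN BOUNDARIES (LOB) transcription factor with a glucocorticoid receptor domain in most cell types, and so also outside the organ boundaries where LOB is normally active. DEX lets such a fusion enter the nucleus. The labels do not say how many transgenic lines were used.

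Plants that meet low temperature raise CBF transcription factors, which bind a short element in the promoters of COR (cold-regulated) genes and switch them on. Dehydration and abscisic acid raise many of the same genes. COR15A and COR15B encode small chloroplast proteins that protect membranes during freezing. COR47 and LTI30 encode dehydrins, very hydrophilic proteins of the late embryogenesis abundant (LEA) class that coat membranes and other proteins when cells lose water, and LTI30 is also called XERO2. COR15A and COR15B lie next to each other on chromosome 2 in the RefSeq annotation of TAIR10.1. No sequence of the probes was used here, so hybridisation of one of these transcripts to the probes of the other was not tested.

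The levels below are log2 values from RMA, which removes background, gives every array the same distribution of values and combines the probes of each set. A unit of 1 is a 2-fold difference, and levels of different probe sets are not compared with each other. A difference was called at an adjusted p under 0.05, from limma with Benjamini-Hochberg adjustment over all 22746 probe sets. Array medians lay between 5.88 and 5.97, and replicate arrays had a Pearson correlation of at least 0.9922 across probe sets. DEX replicate 1 of 35S:LOB-GR lay farther from its group than any other array, with a root mean square deviation of 0.166 against 0.099 to 0.142 for the other 11. It weighs on several results here, which are therefore given with it and without it.

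COR15A was higher in 35S:LOB-GR than in Col whether or not DEX was given. Its log2 level in Col was 4.30, 4.06 and 4.32 under mock and 3.81, 4.15 and 4.42 under DEX. In 35S:LOB-GR it was 6.53, 6.01 and 6.90 under mock and 7.80, 5.53 and 5.33 under DEX. The genotypes did not overlap under either treatment, and within 35S:LOB-GR the DEX arrays spanned more than the whole range of the mock arrays. Under mock the genotype difference was 2.25 ± 0.45 (log2, SE), or 4.75-fold (limma adjusted p = 0.00398). Under DEX it was 2.09 ± 0.45, or 4.26-fold (limma adjusted p = 0.00333). The difference under DEX was 1.30 ± 0.21 when DEX replicate 1 of 35S:LOB-GR was left out (limma adjusted p = 0.000348). The tissue is whole seedlings, so a larger amount of COR15A transcript per cell and a larger share of cells that hold it cannot be told apart, here or for the genes below.

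In Col the COR15A signal was near the low end of the array. Only 27.2% of probe sets under mock and 25% under DEX had a lower mean than COR15A, and no detection calls were used. Background compresses differences at that level, so the size of the genotype difference is less certain than its direction.

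**Figure D1:**
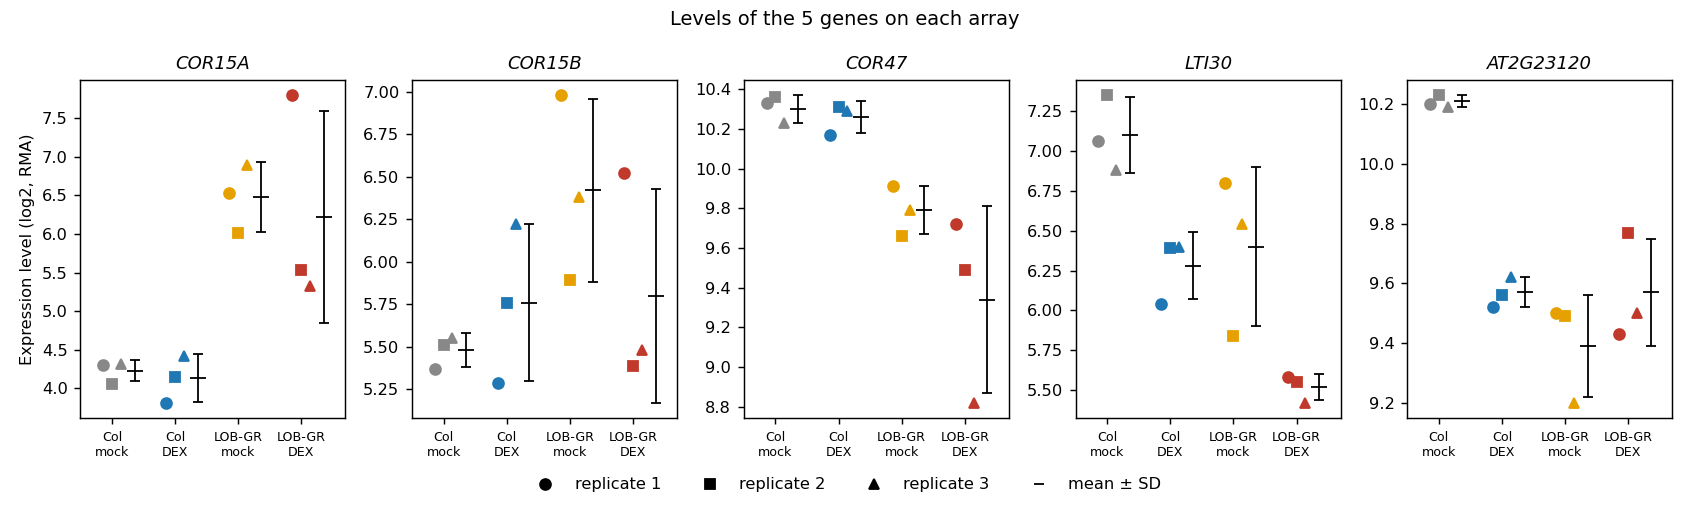
Log2 RMA level of each gene (vertical axes, different for each panel) on the 12 arrays, by group; circles, squares and triangles are replicates 1, 2 and 3 of a group and bars show the mean ± SD of 3 arrays. COR15A was higher on all 6 arrays of 35S:LOB-GR than on any of Col, COR47 was lower on all 6, and AT2G23120 was highest in mock Col.

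COR15B, the neighbour of COR15A, was at a higher level on every mock array of 35S:LOB-GR than on any of Col, without a call. Its log2 level in Col was 5.37, 5.51 and 5.55 under mock and 5.29, 5.76 and 6.22 under DEX. In 35S:LOB-GR it was 6.98, 5.89 and 6.38 under mock and 6.52, 5.39 and 5.48 under DEX. The DEX arrays of the genotypes overlapped. Under mock COR15B was at 0.94 ± 0.30 (95% interval 0.31 to 1.57), just outside the call (limma adjusted p = 0.0546). It was called when any 1 of 5 of the 12 arrays was left out: DEX replicates 1 and 3 of Col, mock replicate 2 of 35S:LOB-GR (1.20) and DEX replicates 1 and 2 of 35S:LOB-GR. The limma adjusted p without DEX replicate 1 of 35S:LOB-GR was 0.0140. Under DEX the genotype difference was 0.04, with an interval of -0.59 to 0.67. Whether the genotype differences of COR15A and COR15B are unequal was not tested.

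The dehydrin gene COR47 was lower in 35S:LOB-GR under DEX. In Col its log2 level was 10.33, 10.36 and 10.23 under mock and 10.17, 10.31 and 10.29 under DEX. In 35S:LOB-GR it was 9.91, 9.66 and 9.79 under mock and 9.72, 9.49 and 8.82 under DEX. All 6 arrays of 35S:LOB-GR lay below all 6 of Col. Under DEX the difference was -0.92 ± 0.16, a level 1.89-fold lower in 35S:LOB-GR (limma adjusted p = 0.000802). Under mock COR47 was at -0.52 ± 0.16, outside the call (limma adjusted p = 0.0563). It was called without DEX replicate 1 (limma adjusted p = 0.0186) or without DEX replicate 3 of 35S:LOB-GR (limma adjusted p = 0.00288).

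The dehydrin gene LTI30 was lower in 35S:LOB-GR under both treatments and fell under DEX in 35S:LOB-GR. Under mock its log2 level was 7.06, 7.35 and 6.88 in Col and 6.80, 5.84 and 6.54 in 35S:LOB-GR. Under DEX it was 6.04, 6.39 and 6.40 in Col and 5.58, 5.55 and 5.42 in 35S:LOB-GR. The DEX arrays lay below the mock arrays in each genotype, and the 35S:LOB-GR arrays lay below the Col arrays under each treatment. Mock 35S:LOB-GR and DEX-treated Col overlapped. The DEX response of LTI30 was -0.88 ± 0.19 in 35S:LOB-GR (limma adjusted p = 0.00721), and this fall stayed called without any single array. In Col the response was -0.82 ± 0.19, which was not called (limma adjusted p = 0.103). The call in Col was made when only the Col arrays were fitted (limma adjusted p = 0.0159) and without mock replicate 2 of 35S:LOB-GR (limma adjusted p = 0.0399). The responses of the genotypes were not called different, at -0.06 with a 95% interval of -0.64 to 0.52.

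The genotype difference of LTI30 was -0.70 ± 0.19 under mock (limma adjusted p = 0.0276) and -0.76 ± 0.19 under DEX (limma adjusted p = 0.00959). The call under mock was lost without mock replicate 1 of Col (limma adjusted p = 0.0701). It was also lost without mock replicate 2 of Col (limma adjusted p = 0.125) or without mock replicate 2 of 35S:LOB-GR, where the difference was -0.43 (limma adjusted p = 0.102). It also ended when only the mock arrays were fitted (limma adjusted p = 0.0590). The call under DEX held without any single array.

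AT2G23120, a member of the LEA class, had 1 group at a higher level than the other 3, the mock seedlings of Col. Its log2 level in mock Col was 10.20, 10.23 and 10.19. In DEX-treated Col it was 9.52, 9.56 and 9.62. In 35S:LOB-GR it was 9.50, 9.49 and 9.20 under mock and 9.43, 9.77 and 9.50 under DEX. All 3 mock arrays of Col lay above every other array. DEX-treated 35S:LOB-GR overlapped both other groups, and mock 35S:LOB-GR lay just below DEX-treated Col. AT2G23120 fell under DEX in Col by 0.64 ± 0.10, 1.56-fold (limma adjusted p = 0.0366), and was at 0.17 ± 0.10 in 35S:LOB-GR (limma adjusted p = 0.392). The responses differed by 0.81 ± 0.15 (limma adjusted p = 0.00412). Under mock it was lower in 35S:LOB-GR, at -0.81 ± 0.10 or 1.76-fold lower (limma adjusted p = 0.000106). Under DEX its genotype difference was 0.00, with a 95% interval of -0.22 to 0.22. The response in Col, the difference of responses and the genotype difference under mock all use the same 3 mock arrays of Col, so they are not independent of each other.

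The call for AT2G23120 in Col ended without any 1 of 5 Col arrays, mock replicates 1 and 2 and DEX replicates 1, 2 and 3, with limma adjusted p between 0.113 and 0.178. Its size there stayed between -0.62 and -0.67. The difference of responses and the genotype difference under mock stayed called without any single array. The actin controls, whose 3' minus 5' signal is a sign of RNA integrity, spanned 1.12 to 1.43 in mock Col and 0.90 to 1.02 in DEX-treated Col (log2). The same signal of the GAPDH controls overlapped between these groups, at -0.25 to -0.13 and -0.28 to -0.13. The part of RNA integrity in the response was not tested.

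The order of the groups differed from gene to gene. COR15A and COR15B were highest in mock 35S:LOB-GR, whereas COR47, LTI30 and AT2G23120 were highest in mock Col. For COR15A the order ran from mock 35S:LOB-GR (6.48 ± 0.45, SD, n = 3) and DEX-treated 35S:LOB-GR (6.22 ± 1.37) to mock Col (4.23 ± 0.14) and DEX-treated Col (4.13 ± 0.31), and only the step between the genotypes exceeded the spread. For COR15B mock 35S:LOB-GR (6.42 ± 0.54) was followed by DEX-treated 35S:LOB-GR (5.80 ± 0.63), DEX-treated Col (5.76 ± 0.46) and mock Col (5.48 ± 0.10), and every pair of neighbours overlapped. For COR47 the order ran from mock Col (10.30 ± 0.07) and DEX-treated Col (10.26 ± 0.08) to mock 35S:LOB-GR (9.79 ± 0.12) and DEX-treated 35S:LOB-GR (9.34 ± 0.47), again with only the genotype step clear of the spread. LTI30 ran from mock Col (7.10 ± 0.24) through mock 35S:LOB-GR (6.40 ± 0.50) and DEX-treated Col (6.28 ± 0.21) to DEX-treated 35S:LOB-GR (5.52 ± 0.08), and only the middle pair overlapped. AT2G23120 in mock Col (10.21 ± 0.02) was clear of DEX-treated Col (9.57 ± 0.05), DEX-treated 35S:LOB-GR (9.57 ± 0.18) and mock 35S:LOB-GR (9.39 ± 0.17).

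The comparison of DEX with mock in 35S:LOB-GR holds what follows activation of the fusion together with any effect of DEX itself. Of the 5 genes, LTI30 fell and 4 were not called, where 9.97% of all probe sets were called, 3.97% higher and 5.99% lower. In Col, without the fusion, LTI30 was at -0.82, not called, and its responses were not called different between the genotypes. LTI30 was the one gene of the 5 whose DEX arrays were clear of its mock arrays, which held for 22.8% of all probe sets, of which the higher made up 11.8% and the lower 11% of all. The 4 were COR15A at -0.26 (95% interval -1.22 to 0.70), COR15B at -0.62 (-1.25 to 0.01), COR47 at -0.45 (-0.80 to -0.10) and AT2G23120 at 0.17 (-0.05 to 0.39). The median over the 5 genes was -0.45, against 0.02 over all probe sets. The count rests on DEX replicate 1. Without it 4 of the 5 genes fell, where 10.2% of all probe sets were called. COR15A was then at -1.05 ± 0.21 (limma adjusted p = 0.00400) and COR15B at -0.98 ± 0.26 (limma adjusted p = 0.0232). COR47 was then at -0.63 ± 0.15 (limma adjusted p = 0.0126) and LTI30 at -0.91 ± 0.22 (limma adjusted p = 0.0129). AT2G23120 was then at 0.24 ± 0.11, not called. Leaving out another array of 35S:LOB-GR called none of COR15A, COR15B, COR47 and AT2G23120, and several of their values lay nearer 0 or past it. Without DEX replicate 3 COR15A was at 0.18, COR15B at -0.46 and COR47 at -0.19. Without DEX replicate 2 COR15A was at 0.08 and COR15B at -0.42, and without mock replicate 1 COR15B was at -0.34. COR15A was at -0.05 without mock replicate 3 and at -0.50 without mock replicate 2, and AT2G23120 was at 0.07 without DEX replicate 2 or mock replicate 3.

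**Figure D2:**
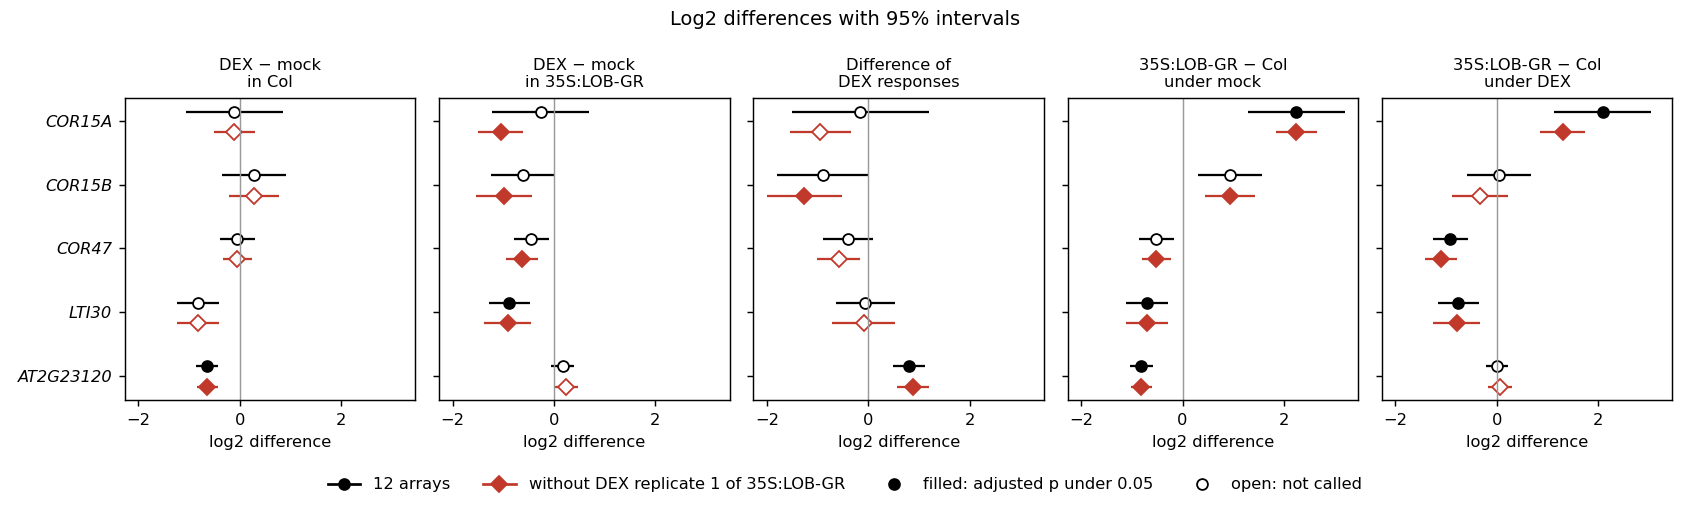
Log2 difference of each gene (horizontal axis) with its 95% interval in 5 comparisons, from all 12 arrays (black circles) and without DEX replicate 1 of 35S:LOB-GR (red diamonds); filled symbols had a limma adjusted p under 0.05. In 35S:LOB-GR the DEX response was called for LTI30 alone with all arrays, and for COR15A, COR15B and COR47 as well without that replicate.

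In Col, where DEX has no fusion to act on, AT2G23120 fell and the other 4 genes were not called, against 0.0572% of all probe sets called, 0.0132% higher and 0.044% lower. LTI30 and AT2G23120 were the genes whose DEX and mock arrays did not overlap, both lower under DEX, which held for 21% of all probe sets (10.3% higher and 10.6% lower). COR15A was at -0.10 (95% interval -1.06 to 0.86), COR15B at 0.28 (-0.35 to 0.91) and COR47 at -0.05 (-0.40 to 0.30). These intervals leave room for changes of either sign in COR15A, COR15B and COR47.

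The difference of the responses asks which DEX effects depend on the transgene. It was called for AT2G23120, 1 of the 5 genes, where 4.77% of all probe sets were called, 1.82% higher and 2.95% lower. COR15B was at -0.90 ± 0.42 (limma adjusted p = 0.294), COR47 at -0.40 ± 0.23 (limma adjusted p = 0.440) and COR15A at -0.16 ± 0.64 (limma adjusted p = 0.946). Without DEX replicate 1 of 35S:LOB-GR, COR15B was called lower, at -1.27 ± 0.35 (limma adjusted p = 0.0400). In that fit 6.99% of all probe sets were called, and 4.17% were called lower. COR15A was then at -0.95 ± 0.28, not called (limma adjusted p = 0.0574).

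Under mock the genotypes did not overlap for any of the 5 genes, with 2 genes higher and 3 lower in 35S:LOB-GR, against 27.9% of all probe sets (14.8% higher and 13% lower). Of these, COR15A was called higher and LTI30 and AT2G23120 lower, where 10.9% of all probe sets were called, 5.76% higher and 5.1% lower. Without DEX replicate 1 of 35S:LOB-GR, which enters this comparison only through the pooled spread, all 5 were called, against 12.9% of all probe sets. Under DEX COR15A was higher and COR47 and LTI30 were lower, where 21.5% of all probe sets were called, 11.7% higher and 9.74% lower. The same 3 genes were called without that array, where 23.9% of all probe sets were called and 10.6% were called lower. Each of these 3 also had arrays that did not overlap between the genotypes, as had 33.9% of all probe sets (18.5% higher and 15.3% lower). The labels give no sowing or harvest batch, so such a batch cannot be told apart from genotype.

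Organ markers were compared because whole seedlings can differ in their share of root and leaf. A listed gene was counted as measured where the annotation gave it a probe set of its own. Others may be on the array without such an annotation. Of 5 leaf markers 1 was measured, RCA (Rubisco activase), and its linear signal spanned 13900 to 14500 in DEX-treated Col and 12200 to 13000 in DEX-treated 35S:LOB-GR. Of 4 root markers 3 were measured, EXPA7, EXPA18 and PYK10, and their summed linear signal spanned 4630 to 5380 and 6490 to 7390 in the same groups. PYK10, a root beta-glucosidase, was called higher in 35S:LOB-GR under DEX, at 0.47 (limma adjusted p = 0.00235). Under mock the root sum spanned 5020 to 5720 in Col and 5690 to 6580 in 35S:LOB-GR, and RCA spanned 13900 to 14900 and 12600 to 14100. The root sum is nearly all PYK10, whose log2 level was 12.38 in mock Col, against 5.19 for EXPA7 and 5.24 for EXPA18. None of the 3 root markers was called between the genotypes under mock, where PYK10 was at 0.15, EXPA7 at -0.30 and EXPA18 at -0.01. Under DEX EXPA7 was at 0.15 and EXPA18 at 0.14, neither called. The same 3' minus 5' signal of the GAPDH controls spanned -0.25 to -0.13 in mock Col and -0.43 to -0.25 in mock 35S:LOB-GR (log2). The part of these shifts in the genotype differences of the 5 genes was not tested. None of the 8 seed markers was analysed here.

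COR15A and COR15B varied more between replicate arrays than nearly all other probe sets. The residual SD of COR15A about its group means was 0.74 (log2, 12 arrays), and only 0.0308% of all probe sets had a larger one. For COR15B it was 0.48, with 0.106% larger, for LTI30 0.30, with 1.97% larger, and for COR47 0.25, with 5.15% larger. AT2G23120 was near the median of all probe sets (0.13), with a residual SD of 0.13. Within 35S:LOB-GR alone the residual SD was 1.02 for COR15A and 0.59 for COR15B, with 0.0308% and 0.114% of probe sets larger. Within Col it was 0.24 for COR15A, with 4.05% larger, and 0.34 for COR15B, with 0.576% larger, while COR47 at 0.07 and AT2G23120 at 0.04 lay below the median of 0.11. With DEX replicate 1 left out the 35S:LOB-GR values were 0.37 for COR15A, with 1.27% of probe sets larger, and 0.44 for COR15B, with 0.558% larger.

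Arrays were also ranked within their groups. DEX replicate 1 of 35S:LOB-GR was the highest of its group for COR15A, COR15B, COR47 and LTI30, by 1.58, 0.73, 0.38 and 0.07 above the group mean, and the lowest for AT2G23120. Mock replicate 2 of 35S:LOB-GR was the lowest of its group for the same 4 genes, and mock replicate 1 the highest for the 4 other than COR15A. DEX replicate 1 of Col was the lowest of its group for all 5 genes. In mock Col no array was highest or lowest for more than 3 of the 5. Each group holds 3 arrays, and the genes share each array's RNA. Over all 12 arrays, group differences included, Pearson's r between the genes ran from -0.61 to 0.77 and was negative for 5 of the 10 pairs. It was 0.72 for COR15A with COR15B and 0.77 for COR47 with LTI30. COR15A had an r of -0.61 with AT2G23120, -0.52 with COR47 and -0.41 with LTI30, and COR15B had -0.55 with AT2G23120.

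**Figure D3:**
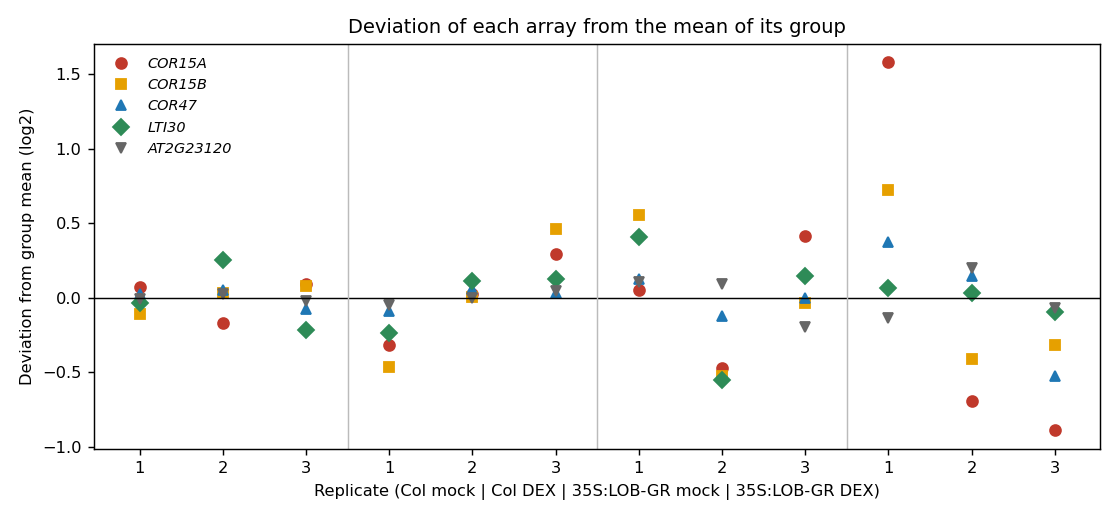
Deviation of each array from the mean of its group (vertical axis, log2) for the 5 genes, with the 3 replicates of each group along the horizontal axis. DEX replicate 1 of 35S:LOB-GR shows the widest gap, 1.58 for COR15A and 0.73 for COR15B above the mean, with AT2G23120 below it.

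Other genes of the cold response were read from lists of loci, where measured again means a probe set annotated to that gene alone. Of 14 other COR and dehydrin genes 3 were measured, COR27, a gene under cold and clock control, AT4G33980 and the dehydrin gene AT1G54410 (HIRD11). COR27 rose under DEX in Col from 5.26 ± 0.29 to 6.50 ± 0.04 (SD, n = 3), by 1.24, and stood at 7.05 ± 0.04 and 6.95 ± 0.21 in mock and DEX-treated 35S:LOB-GR. Its level in mock Col was thus the lowest of the 4 groups, opposite to AT2G23120, whose level there was the highest. The responses of COR27 differed by -1.34 ± 0.18 (limma adjusted p = 0.000507). Under mock COR27 (1.79) and AT4G33980 (0.72, limma adjusted p = 0.000527) were higher in 35S:LOB-GR, as was COR15A. Under DEX COR27 was higher by 0.46 (limma adjusted p = 0.0197), a call lost without any 1 of 4 DEX arrays, replicates 1 and 2 of either genotype (limma adjusted p up to 0.0665, at 0.37, without DEX replicate 1 of 35S:LOB-GR).

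The dehydrin gene AT1G54410 had lower values under DEX in both genotypes, without a call. It was at -0.55 for DEX in 35S:LOB-GR (limma adjusted p = 0.0663) and at -0.89 for DEX in Col (limma adjusted p = 0.0762), and its DEX and mock arrays did not overlap in either genotype. The fall in Col was called without DEX replicate 1 of 35S:LOB-GR (limma adjusted p = 0.0247), and without DEX replicate 2 the fall in 35S:LOB-GR was (limma adjusted p = 0.0345). AT4G33980 had the opposite sign for DEX in Col, at 0.54 (limma adjusted p = 0.0767), with DEX arrays at 5.20, 5.59 and 5.46 above mock arrays at 4.88, 4.90 and 4.85. All 3 genes of the list were called for DEX in Col without DEX replicate 1 of 35S:LOB-GR, COR27 and AT4G33980 (limma adjusted p = 0.0432) higher and AT1G54410 lower. In that fit 0.62% of all probe sets were called for DEX in Col, and 0.501% were called lower. Under mock AT1G54410 was at -0.44 in 35S:LOB-GR against Col (limma adjusted p = 0.142).

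Of 16 other genes listed as raised by cold through CBF factors 6 were measured. Among them AT1G16850, AT1G51090 and AT5G17460 had every group mean under 5. None of the 6 was called by limma for DEX in either genotype, for the difference of responses or for the genotypes under mock. In these comparisons 1, 1, 2 and 1 of the 6 were at an unadjusted p under 0.05. The share of all probe sets at that unadjusted p is not given here, so these counts have no reference. Under DEX 2 were lower in 35S:LOB-GR, AT4G30660 by a log2 difference of -1.18 (limma adjusted p = 0.000168) and AT2G24040 of -0.49 (limma adjusted p = 0.0433). Of all probe sets 9.74% were called lower in that comparison. The call of AT4G30660 held without any single array. That of AT2G24040 was lost when any 1 array was left out other than mock replicate 3 of Col and mock replicate 2 and DEX replicate 1 of 35S:LOB-GR, and its difference was -0.27 without DEX replicate 3 of 35S:LOB-GR (limma adjusted p = 0.206). Without DEX replicate 1 of 35S:LOB-GR, 2 of the 6, AT4G30650 and AT4G30660, were called lower for DEX in 35S:LOB-GR and for the difference of responses, and 1 higher and 1 lower under mock. In these comparisons of that fit, in this order, 10.2%, 6.99% and 12.9% of all probe sets were called. The shares called lower were 6.24%, 4.17% and 5.92%. Without that array AT4G30660 was at -0.74 for DEX in 35S:LOB-GR (limma adjusted p = 0.00586).

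Of 18 regulators of the cold response 1 was measured, STZ (ZAT10), a zinc finger repressor raised by cold and salt. STZ was at -0.80 for DEX in 35S:LOB-GR (limma adjusted p = 0.150) and at -0.98 in Col (limma adjusted p = 0.215), neither called. Without DEX replicate 1 of 35S:LOB-GR the first was called, at -1.18 (limma adjusted p = 0.0148). The CBF genes and the 18 listed genes of the abscisic acid and drought response were not analysed here. Of 13 clock genes GI (GIGANTEA) was measured, and it was lower in 35S:LOB-GR by log2 differences of -2.65 under mock and -2.80 under DEX.

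Other LEA genes, most of which are known from ripening seeds, gave the widest list, with 19 of 26 measured. None of the 19 was called by limma in any of the 5 comparisons. All but DI21, AT2G44060 and AT3G02480 had every group mean under 5, toward the low end of the arrays. Background compresses differences there, so a missing call does not show a steady level. At an unadjusted p under 0.05 there were 4 for DEX in 35S:LOB-GR, 0 for DEX in Col, 2 for the difference of responses, 1 for the genotypes under mock and 0 under DEX. The share of all probe sets at that unadjusted p is not given here, so nothing is read from these counts. The differences of the 19 genes ran from -0.48 to 0.62, and their medians from -0.02 to 0.03, next to medians of 0.00 to 0.02 over all probe sets. The outermost values at both ends belonged to AT3G02480, named after its values were seen, at -0.48 for the genotypes under mock and 0.62 for the difference of responses. Without DEX replicate 1 of 35S:LOB-GR, the drought-induced gene DI21 was called higher for DEX in 35S:LOB-GR, at 0.55 (limma adjusted p = 0.0284), and for the difference of responses, at 0.76 (limma adjusted p = 0.0331), as it was between the genotypes under DEX.

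**Figure D4:**
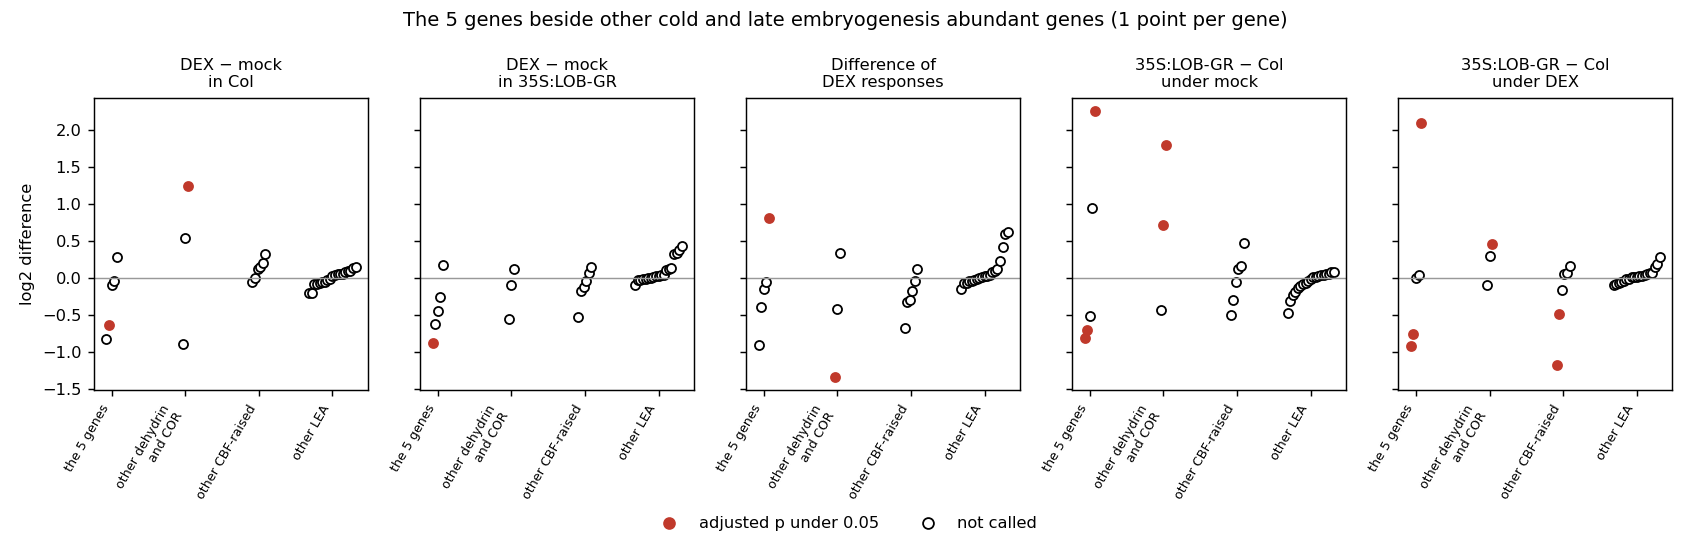
Log2 difference (vertical axis) of the 5 genes, of 3 other dehydrin and COR genes, of 6 other genes listed as raised through CBF factors and of 19 other LEA genes, 1 point per gene, in 5 comparisons. Red points had a limma adjusted p under 0.05. The 19 LEA genes, most of them with every group mean under 5, lie between -0.48 and 0.62 with none called. COR15A and COR27 lie at 2.25 and 1.79 under mock.

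Chromosomal neighbours were read where the annotation gave them a probe set of their own. AT2G23110, the gene before AT2G23120, stayed between 3.84 and 4.29 on all 12 arrays, near the low end, and was not called in any comparison. AT2G42520, the gene before COR15B, was not called in any comparison either, with differences from -0.03 to 0.14. AT1G20430, the gene before COR47, was called higher in 35S:LOB-GR under DEX, at 0.38 (limma adjusted p = 0.0167), where COR47 was lower. That call was lost without DEX replicate 2 of Col (limma adjusted p = 0.0625) or of 35S:LOB-GR (limma adjusted p = 0.0860). The dehydrin genes ERD10, next to COR47, and XERO1, next to LTI30, were not analysed here.

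The 3 genes whose levels most resembled each of the 5 over the 12 arrays were found among 13351 other genes by Pearson correlation, as a description in which the arrays and groups are shared. COR15A was nearest to AT4G12830 (r = 0.948), AT3G07270 (0.944) and AT4G17140 (0.938). COR47 was nearest to AT2G36320 (r = 0.974), AT3G26770 (0.964) and AT2G29310 (0.948). LTI30 was nearest to AT1G18810 (r = 0.953), MSRB5, a methionine sulfoxide reductase (0.920), and AT3G62930 (0.917). AT2G23120 was nearest to AT3G29760 (r = 0.956), NTMC2T6.1 (0.940) and AT4G27120 (0.926). COR15B had less similar companions, AT1G06100 (r = 0.848), AT1G54730 (0.847) and AT3G14067 (0.846), and none of the 5 genes is among the companions because they were left out of the search.

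**Figure D5:**
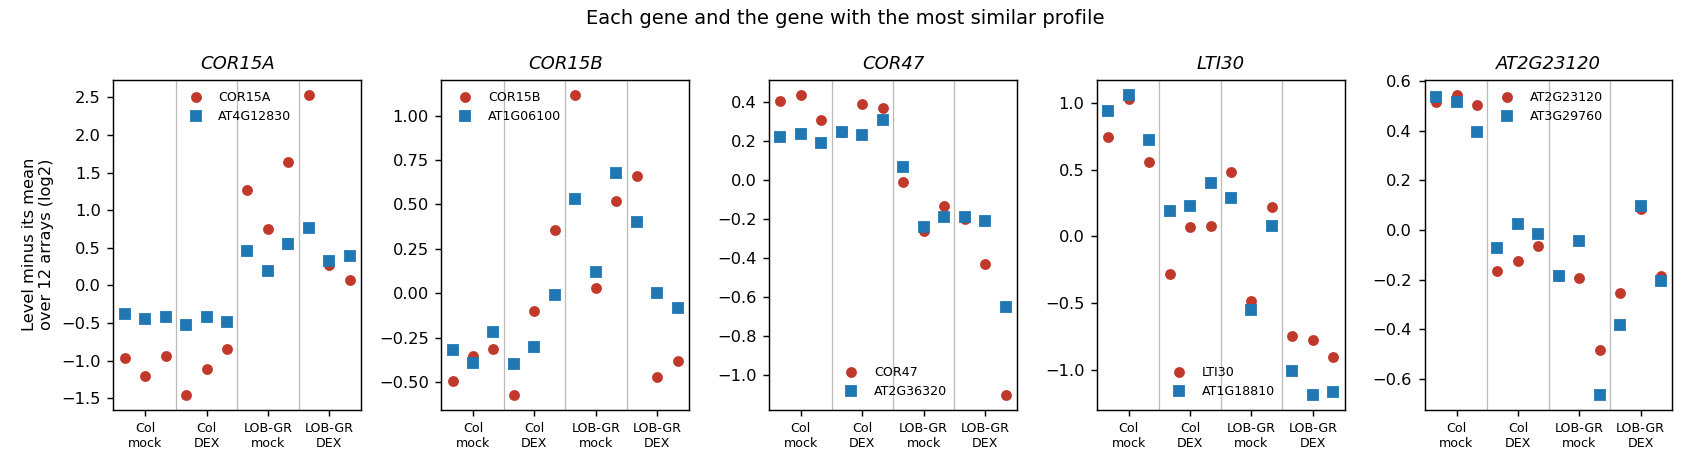
Level minus its own mean over the 12 arrays (vertical axes, log2, different for each panel) of each of the 5 genes (red circles) and of the gene with the highest Pearson correlation to it (blue squares), with the 3 replicates of each group side by side. AT2G36320 (r = 0.974 with COR47) was, like COR47, lower on all 6 arrays of 35S:LOB-GR than on any of Col, and AT1G06100 (r = 0.848 with COR15B) is the loosest of the 5 matches.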

How the data were processed

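Total RNA of seedlings was hybridised to 12 arrays. The authors deposited log2 expression values. RMA is named in the submitters' processing notes, with no version in the sources used here. RMA can hide a shift shared by most transcripts. The table held 22810 probe sets, and 64 Affymetrix controls were left out. Gene names came from the platform's annotation and were brought up to date by Entrez identifier in RefSeq's TAIR10.1 gene table. The annotation gave 1 gene to 13513 probe sets, of which 13436 matched RefSeq. It gave more than 1 gene to 503 and no gene to 8730. No coordinates are given because the files name no build.

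The main model had a mean for each of the 4 groups and no replicate block (limma 3.58.1, R 4.3.3, eBayes with 8 residual and 6.86 prior degrees of freedom). Tests were two-sided, over 22746 probe sets, and intervals are 95%. The model was tested on simulated data. The number of arrays limits the precision. Named list genes were those called, up to 4 for each list and comparison, and the 3 genes most correlated with each member were named. The genes and lists were chosen with earlier results of these data known. Promoter and protein sequences were not used here.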

Additional observations from a re-analysis of the deposited data

Results flagged for a closer look

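The DEX responses of 2 genes described above differed between the genotypes by the test of the difference itself. For AT2G23120 the response was higher in 35S:LOB-GR by 0.81 (log2, limma adjusted p = 0.00412), with all 3 mock arrays of Col above every other array. For COR27 the response was lower in 35S:LOB-GR, with a difference of -1.34 (limma adjusted p = 0.000507) and all 3 mock arrays of Col below every other array. Both differences use the same 3 mock arrays of Col, and both stayed called without any single array.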

How the results depend on the processing

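Over 9 other settings and 12 fits that each left out 1 array, 467 of 520 values of the 5 genes kept their direction and their side of the threshold, 12 lost a call, 24 gained one and 17 changed sign. No called value changed sign. Under mock, 5 of the 5 genes were called between the genotypes in place of 3 without dim probe sets, with an intensity trend and with array weights, where 2545, 2459 and 2857 probe sets were called in all, against 2470. There were 4 called genes with quantile normalization or with only the arrays compared, and 2 at an adjusted p under 0.01. Array weights gave 2 called genes for DEX in 35S:LOB-GR and 2 for DEX in Col, and 2 were called in Col when only its arrays were fitted. For DEX in Col 0 were called at an adjusted p under 0.01. Leaving out 1 array at a time gave 1 to 4 called genes for DEX in 35S:LOB-GR, 0 to 2 in Col, 1 to 2 for the difference of responses, 2 to 5 under mock and 3 under DEX. The causes of these shifts were not tested. With array weights 2 values that were not called changed sign under DEX, COR15B to -0.152 and AT2G23120 to 0.003. Some values that were not called with all arrays changed sign when 1 array was left out. Over all 12 such fits they ranged from -1.051 to 0.183 (COR15A, DEX in 35S:LOB-GR, the lowest being called), -0.250 to 0.056 (COR15A, DEX in Col), -0.948 to 0.286 (COR15A, difference of responses) and -0.334 to 0.146 (LTI30, difference of responses). Under DEX they ranged from -0.324 to 0.269 (COR15B), -0.102 to 0.067 (AT2G23120) and -0.259 to 0.103 (AT1G54410).

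Same-numbered arrays of different groups did not deviate together (r from -0.228 to 0.130 over 12 pairs), so the numbers are not taken as pairs. Between DEX and mock arrays of 35S:LOB-GR with different numbers, r ran from -0.267 to 0.337. The highest was for DEX replicate 2 with mock replicate 1. A batch shared by arrays of different numbers was not tested, and a block by number cannot test it. With a replicate block 0 of the 5 genes were called in Col, where AT2G23120 had a limma adjusted p of 0.0591, and the calls over all probe sets went from 2267 to 2177 for DEX in 35S:LOB-GR and from 13 to 8 in Col. The block moved no other call of the 5 genes. Over all probe sets the 13 calls for DEX in Col became 28 without dim probe sets, 50 with a trend, 399 with array weights, 407 with only its arrays fitted and 2 at an adjusted p under 0.01. They became 141 without DEX replicate 1 of 35S:LOB-GR and 2 to 69 without 1 other array. For DEX in 35S:LOB-GR the 2267 calls became 1500 with only its arrays fitted. The stricter threshold left 1299 there, 474 of 1085 for the difference of responses, 1308 of 2470 under mock and 3018 of 4880 under DEX. Fitting only the arrays compared was not run for the difference of responses, which uses all arrays. An average over probe sets of a gene could not be run, since each of the 5 genes had 1.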
